A study of Homo sapiens with 10 samples.

Results

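Late exposure of HS-SY-II cells to WA-68 was set against early exposure over all genes. HS-SY-II is an established human synovial sarcoma line, and WA-68 is a PROTAC, a molecule that brings a chosen protein to a ubiquitin ligase for destruction, here directed at BRD9. The early side was made of the 2 libraries at 12 h and the 2 at 24 h, the late side of the 2 at 48 h and the 2 at 96 h, all with WA-68 at 100 nM. These are 8 of the 10 libraries in the series, and each was placed on its side by its labels. The 2 libraries from cells given the DMSO vehicle took no part in any test. Their levels are given beside the results as background, and the labels state no harvest time for them. All cultures came from 1 cell line, grown in DMEM with serum and antibiotics, with 2 labelled biological replicates at each time. Longer exposure and longer time in culture go together in these samples and cannot be told apart.

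BRD9 is a bromodomain protein found in the non-canonical BAF complex (ncBAF), a chromatin remodeller that also holds BICRA or its relative BICRAL, and SS18. In synovial sarcoma a chromosome translocation fuses SS18 to an SSX gene, and the fusion protein enters BAF complexes and drives a developmental programme of gene expression. The disease is known for neural and epithelial features, for expression of HOX and Wnt pathway genes, and for its dependence on ncBAF. A PROTAC acts on the protein, so the transcript of BRD9 does not check the treatment.

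Counts assigned to genes ran from 7349744 to 10401147 per library, with a mean of 8881200 on the early side and 8603500 on the late side. The sides did not differ in depth beyond the spread between libraries (exact permutation test, two-sided, p = 0.7714, with a smallest possible p of 0.0286). The late library 48 h replicate 2 and the late library 96 h replicate 2 stood apart from the rest. They were the extremes of principal component 2 (17.8% of the variance), at -24.54 and 18.64. Across genes, their deviation from the mean over libraries went with GC content with a Spearman correlation of -0.306 and 0.357, against -0.203 to 0.066 in the other 6. Mitochondrially encoded transcripts took 10.9% of the counts of 96 h replicate 2 and 6.79% to 8.75% elsewhere. Of listed markers of other cell types, 6 of 10 leukocyte genes (PTPRC, CSF1R and CD3E among them), 3 of 10 endothelial (with PECAM1 and TEK), 5 of 10 muscle (with MYOD1 and MYOG), 5 of 8 adipocyte (with ADIPOQ) and 4 of 11 bone and cartilage genes were at 0 counts in all 8 libraries. The summed level of the leukocyte genes was 0.117 to 0.378 CPM early and 0.0961 to 0.251 CPM late. The other lists had expressed members, with sums of 16.3 to 20.6 and 15.5 to 21.9 CPM for endothelial genes (mostly ERG), 27.1 to 30 and 27.2 to 34.6 for muscle (mostly TNNT1), 73.1 to 90.9 and 67.1 to 80.6 for adipocyte (mostly CEBPA) and 41.2 to 59.4 and 43.2 to 57.9 for bone and cartilage genes. TLE1, BCL2 and CD99, used as markers of synovial sarcoma, were present in every library, at early and late means of 214 and 214, 185 and 180, and 66.8 and 73.7 CPM. None of these markers passed the test.

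At an adjusted p under 0.05, the members that passed were all higher late in the mucin list (3 of 5 tested), among Wnt targets and feedback inhibitors (12 of 23) and in axon guidance (15 of 53), against 3.2% of all genes tested. They were all lower late among replication-dependent histones (34 of 41) and in the lists of G2/M and mitosis (37 of 43) and of G1/S and DNA replication (13 of 47), against 3.19% of all. Most members of the axon guidance and replication lists did not pass, and those counts were 4 and 6 without 12 h replicate 1. Levels are in CPM, the count as a share of the library after scaling of the libraries to each other, and are comparable between libraries but not between genes of different length. Of 16187 genes with enough counts, 518 were higher late (3.2%) and 517 were lower late (3.19%) at an adjusted p under 0.05, together 1035 genes (6.39%). The test was edgeR's quasi-likelihood F test with Benjamini-Hochberg adjustment over all 16187 genes, and a gene past that threshold is called here. Most differences were modest. A change of at least 2-fold was seen in 41 of the higher and 5 of the lower genes. The median log2 difference was 0.40 among the genes called higher and -0.31 among those called lower, against -0.0068 over all genes tested. All 4 late libraries lay above all 4 early ones for 961 genes (5.94%) and below them for 1040 (6.42%). The counts of calls rested in part on single libraries, falling to 293 higher and 242 lower without 12 h replicate 1, to 324 and 304 without 12 h replicate 2, and to 308 and 285 without 96 h replicate 1. Without both 48 h replicate 2 and 96 h replicate 2 they were 563 and 459. Genes called higher had a median GC content of 56.7%, those called lower 49.1% and all genes 48.4%. A fit with a GC offset for each library, added after the data were seen, called 1017 of the same 1035 genes.

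**Figure D1:**
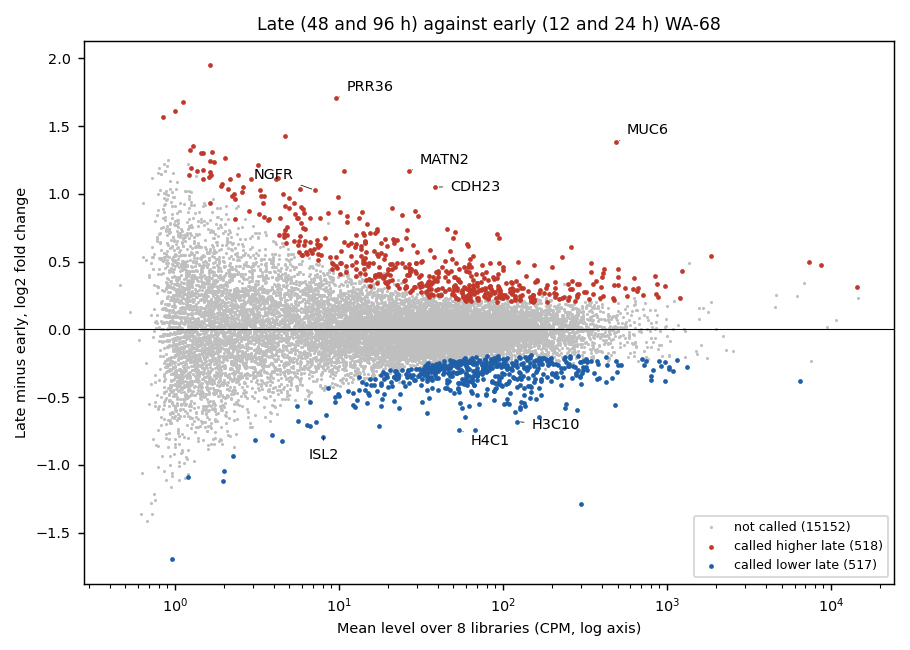
Each point is 1 of the 16187 genes tested, with its mean level over the 8 libraries in CPM on a log axis and its late minus early log2 fold change on the vertical axis. The 518 genes called higher (red) spread further from 0 than the 517 called lower (blue), with PRR36 and MUC6 among the highest and ISL2 and H4C1 among the lowest labelled.

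Fewer genes were called within a side than across it, in comparisons of 2 libraries with 2. Without adjustment this did not hold for the late side. The step from 24 h to 48 h called 59 genes higher and 148 lower (1.28% in all), and 1544 genes had an unadjusted p under 0.05. Between 24 h and 12 h, both early, 1 gene passed the test (0.00618%), and it was MUC6. With an unadjusted p under 0.05 that comparison held 704 genes. Between 96 h and 48 h, both late, 15 genes passed (0.0927%), 7 higher and 8 lower. With an unadjusted p under 0.05 it held 1976 genes, more than the step from 24 h to 48 h. The 15 became 1103 without 96 h replicate 1, 57 without 96 h replicate 2, 6 without 48 h replicate 1 and 1 without 48 h replicate 2, fits in which the lone library of a time is assumed to vary like the other groups. Among the 518 genes called higher, the median log2 difference was 0.08 between 24 h and 12 h and 0.13 between 96 h and 48 h. Among the 517 called lower, these medians were -0.06 and -0.03.

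Set against DMSO, the early and late sides fell into different orders for different genes. Of the 518 genes higher late, the DMSO mean was at or below the early mean in 233, between the early and late means in 241 and at or above the late mean in 44. Of the 517 genes lower late, DMSO was at or above the early mean in 232, between in 272 and at or below the late mean in 13. These counts are a description with no test, because a call depends on the early level itself.

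The 14 largest rises and 14 largest falls were taken from 386 and 416 called genes that had a symbol and no overlap between the sides and averaged at least 5 CPM. MUC6, which encodes a gel-forming mucin of the stomach, is given first, and no tested gene had a smaller adjusted p. The gene lies on the minus strand of chromosome 11, from 1012821 to 1036706 (GRCh38). Its level was 207 and 225 CPM in the DMSO libraries, 220 and 204 (12 h), 366 and 296 (24 h), 618 and 584 (48 h), and 721 and 913 (96 h). The 12 h libraries were level with DMSO, and at each later time both replicates lay above both of the time before. Its mean was 272 ± 74.8 (SD, n = 4) early and 709 ± 148 (SD, n = 4) late, a log2 fold change of 1.38 ± 0.14 (SE, adjusted p = 7.02e-06). It was the sole gene whose change also exceeded 1.5-fold by edgeR's test against that fold.

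PRR36 on chromosome 19 (7868719 to 7874379) had the largest rise of the genes taken by the rule. It was at 3.21 and 3.46 CPM with DMSO, 4.40 and 3.01 (12 h), 4.94 and 5.33 (24 h), 11.9 and 8.08 (48 h), and 15.4 and 23.3 (96 h). The early libraries were close to DMSO and the late ones spread widely, with 96 h replicate 2 at the top. The fitted log2 fold change was 1.71 ± 0.24 (SE, adjusted p = 9.62e-05).

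MATN2, encoding matrilin-2, an adaptor protein of the extracellular matrix, was at 17.1, 13.1, 14.4 and 20.7 CPM in the early libraries and 31.3, 27.0, 46.3 and 43.0 in the late ones. DMSO held 12.6 and 9.78, below every treated library. The log2 fold change was 1.17 ± 0.14 (SE, adjusted p = 3.21e-05). CDH23, a cadherin best known from the tip links of hair cells, lies on chromosome 10 (71396934 to 71815947). It was at 27.1, 22.1, 27.2 and 25 CPM early, all under the 28.1 and 32.3 of DMSO, then at 40.2 and 42.4 at 48 h and 65.0 and 61.5 at 96 h. Its log2 fold change was 1.05 ± 0.12 (SE, adjusted p = 1.64e-05), and the step from 48 h to 96 h passed the test by itself at 0.62 (adjusted p = 0.00868).

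**Figure D2:**
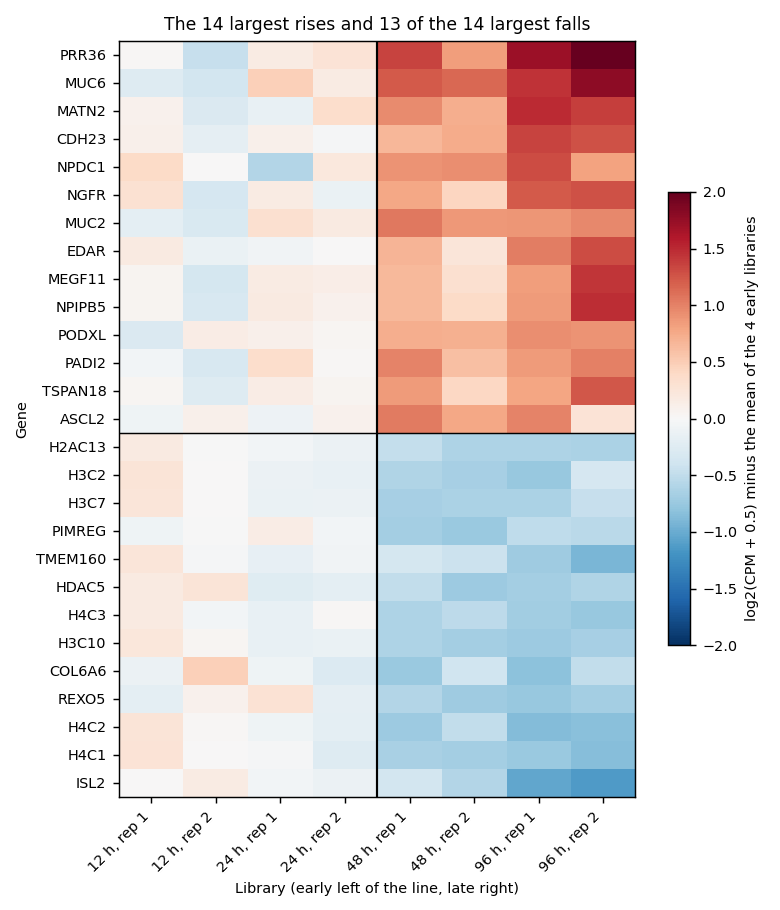
Rows are the 14 largest rises and 13 of the 14 largest falls, columns are the 8 libraries, and color gives log2(CPM + 0.5) minus the mean of the 4 early libraries. PRR36, MATN2 and CDH23 have higher values at 96 h than at 48 h, while the histone genes among the falls are about equally low at both late times.

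The other large rises covered receptors, membrane proteins and a transcription factor. NGFR, the low-affinity neurotrophin receptor, was at 2.35 and 1.91 CPM with DMSO, 3.59 to 5.86 early and 6.47 to 12.0 late. Each treated library exceeded both DMSO libraries, and the late mean of 9.62 ± 2.66 (SD, n = 4) exceeded the early one of 4.75 ± 1.03 (SD, n = 4), with a log2 fold change of 1.03 ± 0.19 (SE, adjusted p = 0.00154). NPDC1, named for neural proliferation and differentiation control, rose by 1.04 ± 0.19 on the log2 scale (SE, adjusted p = 0.00135). EDAR, the ectodysplasin receptor, rose by 0.93, MEGF11, a transmembrane protein with EGF-like repeats, by 0.90, PODXL, a sialomucin, by 0.89 and TSPAN18, a tetraspanin, by 0.87. PADI2, an enzyme that turns protein arginine into citrulline, went from 20.7 ± 4.08 to 37.8 ± 4.75 CPM (SD, n = 4 each, log2 0.87, adjusted p = 3.8e-05). ASCL2, a basic helix-loop-helix factor of intestinal stem cells, stood at 5.70 to 6.60 CPM early, below both DMSO libraries at 10.1 and 8.35, and at 7.50 to 13 late (log2 0.86, adjusted p = 0.00128). NPIPB5 also rose, by 0.89, but belongs to a family of near-identical copies among which the counting could divide reads. These 14 rises kept their call with any single library left out.

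Outside the rule, and picked after their values were seen, TRPM5 and CA4 rose further from low levels. TRPM5, a cation channel of taste cells, had the largest fitted rise of all genes tested, from 0.658 ± 0.237 to 2.61 ± 0.659 CPM (SD, n = 4 each, log2 1.95 ± 0.32 SE, adjusted p = 0.000534). CA4, a membrane-bound carbonic anhydrase, went from 2.56 ± 0.491 to 6.86 ± 1.63 CPM (SD, n = 4 each, log2 1.43, adjusted p = 0.000136). In both genes all late libraries lay above all early ones.

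Rises of moderate size but little spread had adjusted p values as small as that of MUC6, and the 4 with the smallest are named after their values were seen. TMEM132B was at 39.8 and 38.7 CPM with DMSO, 46.5, 49.0, 46.7 and 51.6 early and 76.1, 70.4, 76.1 and 73.9 late (log2 0.61 ± 0.06 SE, adjusted p = 7.02e-06). LRRC7, a scaffold of the postsynaptic density, was at 44.4 and 43.1 CPM with DMSO, 46.9, 43.8, 51.7 and 48.0 early and 68.3, 76.9, 75.8 and 73.2 late (log2 0.63 ± 0.07 SE). For TMEM132B every early library lay above both DMSO libraries, and for LRRC7 all but 1 did. In both, the late libraries lay above all of these, with no further step at 96 h that passed the test. SCUBE1, which encodes a secreted and cell-surface protein with EGF-like and CUB domains, was at 32.4, 31.3, 32.9 and 40.1 CPM early and 58.1, 53.6, 58.8 and 58.9 late (log2 0.74 ± 0.08 SE). Its relative SCUBE3 was at 74.1, 67.3, 71.9 and 78.7 CPM early and 110.8, 100.7, 126.4 and 128.9 late (log2 0.68 ± 0.07 SE, adjusted p = 7.7e-06). These calls held with any single library left out.

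**Figure D3:**
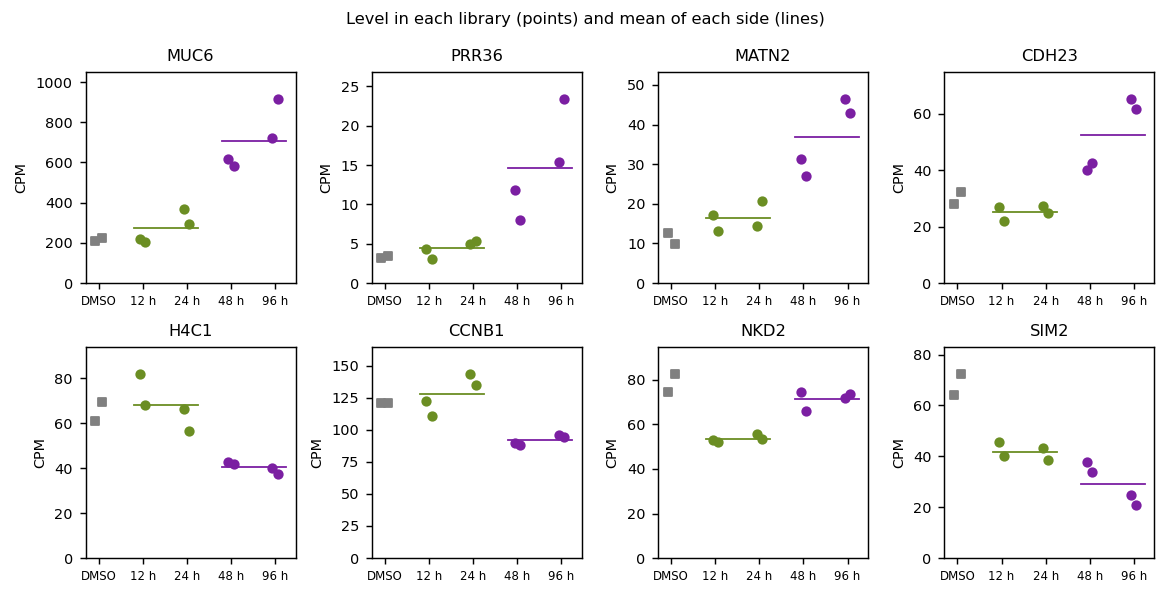
Each panel gives the level in CPM of 1 gene in every library (points: grey DMSO, green early, purple late), with lines at the mean of each side. MUC6, PRR36, MATN2 and CDH23 are higher in all late libraries, H4C1, CCNB1 and SIM2 are lower in them, and NKD2 returns late to a level near that of DMSO.

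Mucins are the large glycoproteins of mucus, and 5 of 12 listed had enough counts. MUC6, MUC2 and MUC5B were higher late, 0 were lower, and the list's median log2 difference was 0.67 against -0.0068 for all genes. MUC2, the main mucin of the intestine, lies beside MUC6 on chromosome 11 (1074875 to 1110511). It was at 5.64, 5.21, 8.36 and 7.50 CPM early and 14.2, 12.4, 12.6 and 13.3 late, with a log2 fold change of 0.97 ± 0.14 (SE, adjusted p = 0.000125). The late libraries agreed closely with each other and lay above DMSO at 9.41 and 9.19. MUC5B, a mucin of the airways, overlapped between the sides (log2 0.61, adjusted p = 0.0459) and lost its call without any 1 of 6 libraries. MUC5AC (0.67, adjusted p = 0.0907) and MUC1 (0.36, adjusted p = 0.238) were not called.

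Wnt ligands act through Frizzled receptors to stabilise beta-catenin, and the pathway's own targets include inhibitors that limit it. Of 23 such targets and feedback inhibitors tested, 12 were higher late and 0 lower, with a median log2 difference of 0.23. The count ran from 8 to 13 with single libraries left out and was 13 without both libraries that stood apart. NKD2, an inhibitor that binds Dishevelled, lies on chromosome 5 (1008829 to 1038943). It was at 53, 51.9, 55.7 and 53.7 CPM early and 74.8, 66.2, 72.0 and 73.6 late. The early libraries were tightly grouped and all below DMSO, which was at 74.4 and 82.5. The log2 fold change was 0.42 ± 0.06 (SE, adjusted p = 0.000169), and that of its relative NKD1 was 0.39.

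AXIN2, a scaffold of the beta-catenin destruction complex and a standard target gene, was at 72.2, 71.2, 82.2 and 77.2 CPM early and 92.8, 86.4, 94.5 and 97.8 late. DMSO stood at 74.4 and 79.6, inside the early range, and the log2 fold change was 0.30 ± 0.06 (SE, adjusted p = 0.005). LGR5, a receptor for R-spondins, was at 126, 130, 169 and 143 CPM early and 173, 174, 196 and 189 late, so the sides did not overlap but 24 h replicate 1 came close. Its relative LGR6 rose by 1.03 from lower levels, and this call was lost without 96 h replicate 1. Of the list's secreted proteins other than ligands, SFRP5 rose by 0.79, DKK3 by 1.24 and NOTUM, which removes the lipid from Wnt proteins, by 0.41. DKK3 had an early mean of 0.983 CPM and lost its call without 12 h replicate 2 or 96 h replicate 1. FZD10, a Frizzled receptor, rose by 0.38, and the ligand WNT11 by 0.23, the target and nuclear partner TCF7 by 0.26 and the cyclin gene CCND1 by 0.24. The calls of WNT11 and TCF7 were each lost without any 1 of 5 libraries, and that of CCND1 without either 12 h library. Among the 12 called members, DMSO was at or below the early mean in 3, between the sides in 7 and at or above the late mean in 2.

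Axon guidance genes encode the Slit, semaphorin, netrin and ephrin ligands and their receptors. Of 53 tested, 15 were higher and 0 lower, with a median of 0.18. Among the ligands, SLIT3 rose by 0.70 and SEMA3B by 0.66. Among the receptors, ROBO2, which binds Slit proteins, went from 51.5 ± 3.18 to 71.0 ± 7.56 CPM (SD, n = 4 each, log2 0.46, adjusted p = 0.000357), EPHB2 rose by 0.44 and EPHA4 by 0.34. The count was 4 without 12 h replicate 1, 7 without 12 h replicate 2, 24 h replicate 2 or 96 h replicate 1, and 9 without 24 h replicate 1. It was 8 with 48 h alone as the late side and 23 with 96 h alone. ROBO2, EPHB2, EPHA4 and SLIT3 kept their calls with any single library left out, and SEMA3B lost its call without 12 h replicate 1 or 96 h replicate 1.

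Of 28 neuronal cytoskeleton and synapse genes, 6 were higher and 0 lower, with a median of 0.18. MAP2, a microtubule protein of dendrites, was at 34.2 and 34.7 CPM with DMSO, 62.7 ± 4.62 (SD, n = 4) early and 87.2 ± 4.34 (SD, n = 4) late. All late libraries lay above all early ones, and all of those above DMSO, with a late minus early log2 fold change of 0.48 ± 0.06 (SE, adjusted p = 8.3e-05). SHANK1, a scaffold of the postsynaptic density, rose by 0.58 and the tubulin gene TUBB2B by 0.43. DLG4, another postsynaptic scaffold, rose by 0.29 and the synaptic vesicle protein gene VAMP2 by 0.38. The remaining member called is PRR36, which has the largest rise of the list. The list was written with earlier results of these data known, so its place there adds no support for a neuronal pattern. DLG4 and VAMP2 each lost their call without either of 2 libraries, and the count was 10 in a fit with 1 mean per time. Of 25 ion channel genes, KCNH2, KCNH3 and KCND1, all of voltage-gated potassium channels, were called higher, and each lost its call in 6 or 7 of the 8 fits that left out 1 library.

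Matrix genes rose in part. Of 8 fibrillar collagen genes, 3 were higher and 0 lower. COL5A1 went from 352 ± 13 to 480 ± 28.7 CPM (SD, n = 4 each, log2 0.44, adjusted p = 9.16e-05) and COL1A1 from 59.1 ± 4.20 to 78.7 ± 7.70 (log2 0.41, adjusted p = 0.000815). COL5A3 rose by 0.63 with overlap between the sides and lost its call without any 1 of 6 libraries. Of 42 other matrix genes and matrix enzymes, 10 were higher and 1 lower, with a median of 0.08. The rises took in the basement membrane genes AGRN (0.39), LAMA5 (0.34), COL18A1 (0.35), LAMB1 (0.30) and PXDN (0.41), the cartilage genes COMP (0.85) and COL9A3 (0.36) and the protease gene MMP2 (0.32). LAMA1, another laminin chain, was the 1 called lower, going from 65.8 ± 6.73 to 49.9 ± 4.95 CPM (SD, n = 4 each, log2 -0.40, adjusted p = 0.00282).

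HOX genes set position along the body axis. Of 25 tested, 7 were higher and 0 lower, all from the HOXB and HOXC clusters, with a median of 0.21 and log2 fold changes of 0.26 for HOXB3 to 0.36 for HOXB4. HOXC12 was at 427, 448, 448 and 458 CPM early and 535, 473, 577 and 652 late, against 339 and 412 with DMSO. The order from DMSO to early to late held for all its libraries. The HOX count was 3 without 12 h replicate 1, 4 without 96 h replicate 1 and 1 with 48 h alone as the late side. HOXB3 and HOXB4 lost their calls without either of those libraries. Of 22 genes of ERK feedback and ETS factors, 4 were higher. They were PHLDA1 (0.34), SPRED3 (0.82), an inhibitor of RAS to ERK signaling, the receptor gene FGFR1 (0.30) and the feedback inhibitor gene SPRY4 (0.26). That count was 2 without 12 h replicate 2, where FGFR1 and SPRY4 lost their calls, 8 without 48 h replicate 2 and 9 with 96 h alone as the late side.

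Of 13 mitochondrially encoded transcripts, 5 were higher and 0 lower, with a median of 0.25. The subunit genes MT-ATP8 and MT-ATP6 of ATP synthase rose by 0.54 and 0.49, and MT-ND5, MT-ND3 and MT-ND4 of complex I by 0.48, 0.44 and 0.31. The list was uneven across libraries. Its median deviation from the early mean was -0.09 and -0.11 (12 h), 0.12 and 0.07 (24 h), 0.28 and 0.19 (48 h), and -0.01 and 0.63 (96 h). The high value is that of 96 h replicate 2, and 96 h replicate 1 was level with the early side. The count was 3 without 12 h replicate 1 or by DESeq2, 9 without 96 h replicate 1, 10 with 48 h alone as the late side and 4 without both libraries that stood apart. MT-ND4 lost its call without any 1 of 5 libraries, and MT-ATP6 without 12 h replicate 1. The share of all counts from these genes was 7.35 ± 0.556% early and 8.87 ± 1.47% late (SD, n = 4 each, exact permutation test, two-sided, p = 0.0857, 0.3428 adjusted over 4 library measures).

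**Figure D4:**
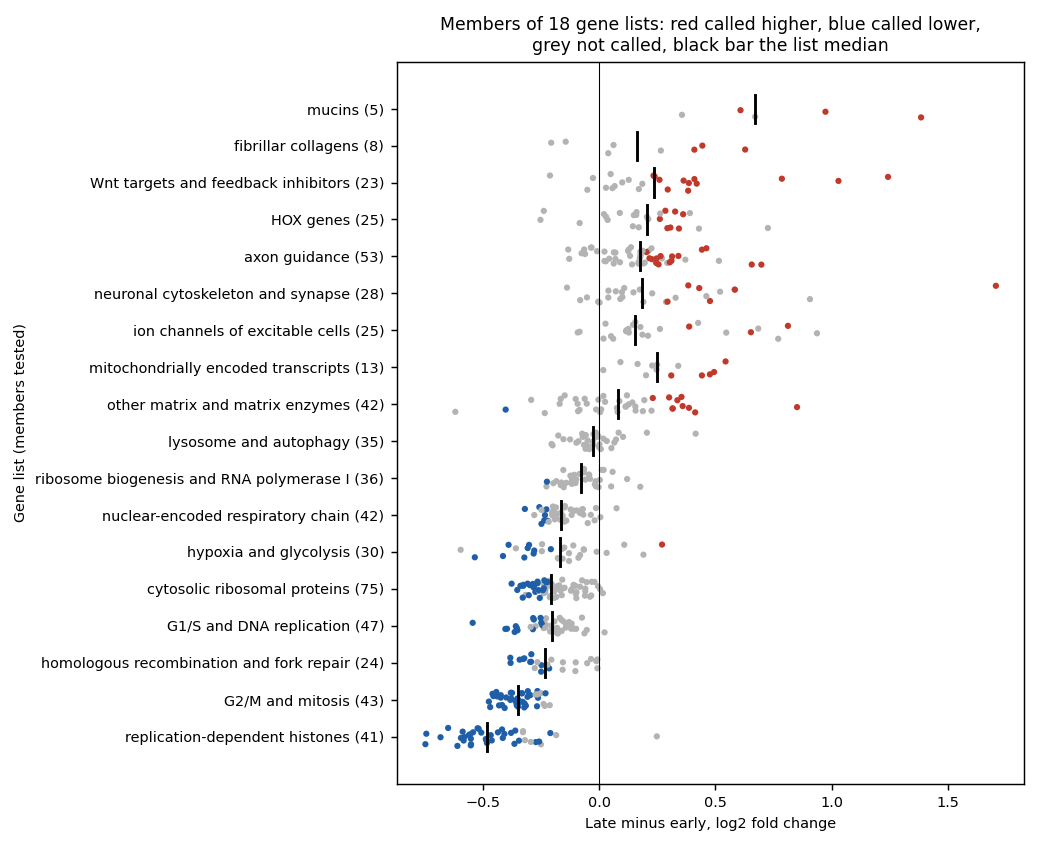
Each point is a tested member of 1 of 18 gene lists, placed by its late minus early log2 fold change, red where called higher, blue where called lower and grey where not called, with a black bar at the list median. The 43 genes of G2/M and mitosis all lie below 0, as do 40 of the 41 histone genes, while the Wnt, axon guidance and mucin lists lie mostly above it.

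Replication-dependent histone genes had the lowest median of the gene lists. They are transcribed in S phase to package new DNA, and most of their mRNAs end in a stem loop and not in a poly(A) tail. These libraries were selected for poly(A), and the genes have near-identical copies, so levels of single genes are uncertain. Of 41 such genes tested, 34 were lower late and 0 higher, 40 lay below 0, and the median log2 difference was -0.48. The count ran from 25 to 37 with single libraries left out and was 37 without both libraries that stood apart. Among all 64 tested genes with a histone cluster symbol, 49 were lower. The 1 that was higher was H2BC6, at 23.0 ± 1.29 CPM early and 31.2 ± 3.17 late (SD, n = 4 each, log2 0.43, adjusted p = 0.00329). It was named after its values were seen. Histone genes made up 7 of the 14 largest falls.

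Transcription factor NF-Y binds the CCAAT box, which is common in histone and mitotic promoters. The promoters of H3C10 and H2AC13, neighbours on the plus strand of chromosome 6 and both among the 14 largest falls, are printed to show the boxes of this family, and were chosen after the values were seen. CDCA8 stands beside them as a mitotic gene that fell, cut short where GENCODE begins the gene. A rule had taken the promoters of TK1, TYMS, KIF2C and CDCA8 from the called G1/S and G2/M genes. Of these, only CDCA8 held CCAAT on either strand in the 250 bases before the start. TK1, TYMS and KIF2C did not, and they are not printed. Each run is plus-strand RefSeq sequence of GRCh38.p14 and reads toward the gene, and capitals mark CCAAT or its reverse complement ATTGG. The regions are chr6:27809801-27810050 for H3C10, chr6:27807923-27808172 for H2AC13 and chr1:37692266-37692417 for CDCA8.
H3C10: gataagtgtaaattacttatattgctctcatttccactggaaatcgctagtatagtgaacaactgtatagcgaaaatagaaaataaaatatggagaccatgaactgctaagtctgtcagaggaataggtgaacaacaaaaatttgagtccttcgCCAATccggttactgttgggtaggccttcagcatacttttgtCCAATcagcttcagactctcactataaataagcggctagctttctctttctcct
H2AC13: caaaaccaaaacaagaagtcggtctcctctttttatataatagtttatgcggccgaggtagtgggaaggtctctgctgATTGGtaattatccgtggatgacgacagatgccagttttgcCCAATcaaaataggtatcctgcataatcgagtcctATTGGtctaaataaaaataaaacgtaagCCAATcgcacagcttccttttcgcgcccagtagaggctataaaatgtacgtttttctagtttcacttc
CDCA8: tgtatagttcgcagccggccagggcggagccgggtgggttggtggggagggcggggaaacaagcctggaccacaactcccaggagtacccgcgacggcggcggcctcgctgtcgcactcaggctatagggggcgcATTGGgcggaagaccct
H3C10 holds 2 boxes, at 96 to 92 and 54 to 50 bases before the RefSeq start, and H2AC13 holds 4 within the 172 bases before it. In the 250 bases before the start, on either strand, CCAAT was found in 83.8% of 37 histone promoters, 75.7% of 37 G2/M promoters, 52.5% of 40 G1/S promoters and 32% of all 35116 promoters. The letters TTTGAA, known in mitotic promoters as the cell cycle genes homology region, were found in 54.1% of the G2/M, 29.7% of the histone and 2.5% of the G1/S promoters, against 13.3% of all. The E2F-like letters TTTCCCGC or TTTGGCGC were found in 35% of the G1/S, 5.41% of the G2/M and 0 of the histone promoters, against 1.93% of all. A TTTGAA and a CCAAT match can share a base, as they do in the unprinted part of CDCA8. These shares describe letters in a window, with no test, and no site was measured here.

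H3C10 encodes a copy of histone H3. It was at 139 and 178 CPM with DMSO, 175, 154, 135 and 136 early and 97.0, 92.9, 89.9 and 94.1 late. The 24 h libraries were lower than the 12 h ones, the late libraries differed little among themselves, and the sides did not overlap. The mean went from 150 ± 18.8 to 93.5 ± 2.94 CPM (SD, n = 4 each), a log2 fold change of -0.68 ± 0.07 (SE, adjusted p = 7.02e-06).

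H4C1, a copy of histone H4 on chromosome 6 (26021679 to 26021990), was at 60.8 and 69.2 CPM with DMSO, 81.6, 68.2, 66.5 and 56.6 early and 42.9, 41.9, 40.2 and 37.2 late. It had the largest fall of the listed histone genes, at -0.75 ± 0.09 on the log2 scale (SE, adjusted p = 1.64e-05). The H4 copies H4C2 and H4C3 fell by 0.74 and 0.65, the H3 copies H3C7 and H3C2 by 0.61 and 0.59, and the H2A copy H2AC13 from 153 ± 14.4 to 102 ± 5.38 CPM (SD, n = 4 each, log2 -0.59, adjusted p = 1.64e-05). Linker histone gene H1-4 fell by 0.55. By library, the median deviation of the list from its early mean was 0.18, 0.02, -0.08 and -0.13 early and -0.46, -0.53, -0.60 and -0.21 late. The smallest late deviation was that of 96 h replicate 2, whose deviations from the other libraries also went with GC content, and the part of GC in that value was not tested. With the GC offset 35 of the 41 genes were lower. Among the 34 called genes, DMSO was at or above the early mean in 27 and between the sides in 7.

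Genes of G2/M and mitosis build and run the spindle and the checkpoint. Of 43 tested, 37 were lower late, 0 were higher, all 43 lay below 0 and the median was -0.35. The count ran from 26 to 39 with single libraries left out and was 23 with 96 h alone as the late side. In bulk RNA, fewer cells in a phase of the cycle and less RNA per cell in that phase cannot be told apart. CCNB1, which encodes cyclin B1, lies on chromosome 5 (69167010 to 69178245). It was at 121 and 121 CPM with DMSO, 122, 111, 143 and 135 early and 90.0, 87.8, 95.7 and 94.4 late. The late libraries were all below DMSO and below every early library, with the 24 h pair at the top. The log2 fold change was -0.47 ± 0.07 (SE, adjusted p = 0.000168).

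CDCA8, a subunit of the chromosomal passenger complex, went from 75.1 ± 4.10 to 54.4 ± 4.68 CPM (SD, n = 4 each, log2 -0.47, adjusted p = 0.000138). The spindle motor genes KIF2C and KIF4A fell by 0.44 and 0.42, the anaphase activator gene CDC20 by 0.46, the mitotic kinase genes CDK1 and PLK1 by 0.44 and 0.41, and PIMREG, a mitotic regulator outside the list, by 0.62. The 6 members that were not called were NUSAP1, PRC1, MYBL2, CDC25C, FOXM1 and MKI67. MKI67, the proliferation marker Ki-67, stood at -0.21 (adjusted p = 0.175) and FOXM1, a transcription factor of mitotic genes, at -0.23 (adjusted p = 0.148). For 28 of the 37 called genes DMSO lay between the early and late means, and for 9 it was at or above the early mean.

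Of 47 genes of G1/S and DNA replication, 13 were lower and 0 higher, with a median of -0.20 and 46 below 0. TK1, thymidine kinase of the nucleotide salvage pathway, was at 53.9 and 55.8 CPM with DMSO, 74.9, 62.3, 64.8 and 56.3 early and 42.1, 40.0, 45.5 and 49.7 late. Every early library lay above DMSO and every late one below it, and the log2 fold change was -0.54 ± 0.08 (SE, adjusted p = 0.000204). TYMS, the enzyme that makes thymidylate, went from 340 ± 22.7 to 257 ± 13.9 CPM (SD, n = 4 each, log2 -0.40, adjusted p = 0.000314). The ribonucleotide reductase genes RRM1 and RRM2 both fell by 0.35, the helicase subunit genes MCM2 and MCM7 by 0.36 and 0.28, the licensing factor gene CDT1 by 0.36, the flap nuclease gene FEN1 by 0.40 and the sliding clamp gene PCNA by 0.25. PCNA and MCM7 each lost their call without any 1 of 4 libraries, and CDT1 without either of 2. The count was 6 without 12 h replicate 1 and 8 without 12 h replicate 2. It was 26 with 48 h alone as the late side and 8 with 96 h alone, and that difference between the late times was not tested.

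Of 24 genes of homologous recombination and fork repair, 11 were lower and 0 higher, with a median of -0.23. BLM, the Bloom helicase gene, stood at 53.9, 53.6, 53.6 and 53.3 CPM late against 73.4, 75.6, 67.0 and 63.6 early, a fall of 0.38 (adjusted p = 0.000757). BRCA2 fell by 0.38, FANCG by 0.34 and BRCA1 by 0.32. The count was 4 without 12 h replicate 1, 6 without 48 h replicate 1 and 5 with 96 h alone as the late side. Among 15 cell cycle inhibitors, D-type cyclins and their partners, 2 were higher and 3 lower. CDKN1A, encoding the CDK inhibitor p21, rose by 0.46 with overlap between the sides (adjusted p = 0.0169), and its call was lost without 12 h replicate 1, 12 h replicate 2 or 96 h replicate 1. CCND1, encoding cyclin D1, was at 304 and 306 CPM with DMSO, 253 to 272 early and 296 to 322 late. CDKN2C, encoding the inhibitor p18, fell by 0.37, CDK4 by 0.26 and the RB relative RBL1 by 0.24. RBL1 lost its call without any 1 of 5 libraries, CCND1 without either 12 h library and CDK4 without 12 h replicate 1 or 96 h replicate 1. Of 18 p53 targets, CDKN1A was the 1 called, a share near the 6.39% of all genes tested called in either direction.

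**Figure D5:**
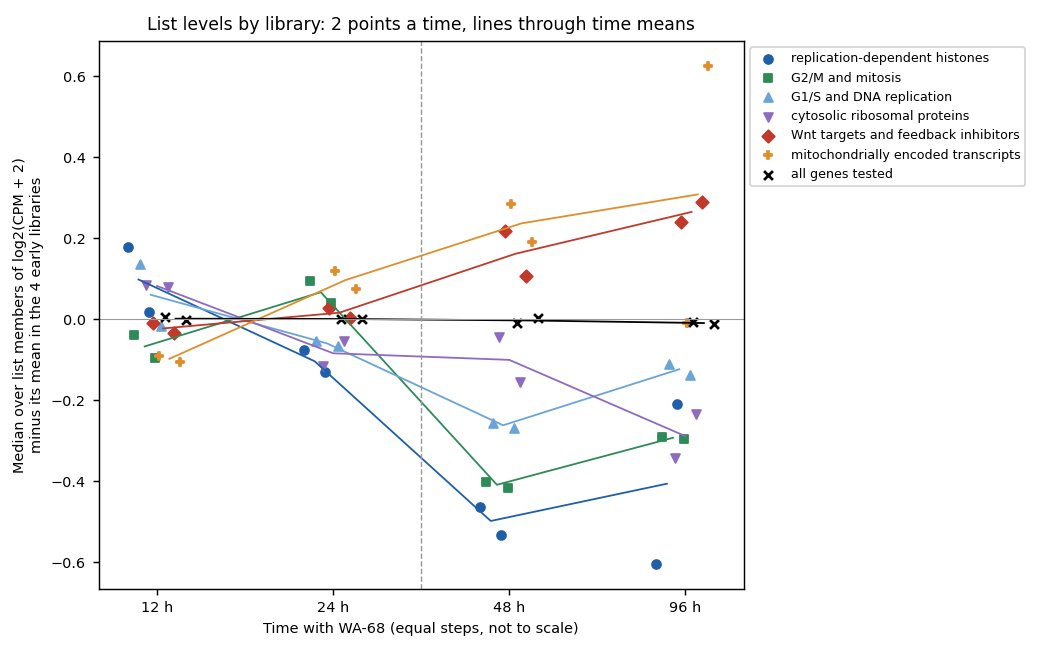
For 6 gene lists and all genes tested, points give each library's median over the members of log2(CPM + 2) minus its mean in the 4 early libraries, with lines through the means of each time. Histone and G2/M genes lie lower at 48 h than at 24 h, while ribosomal protein genes are lowest at 96 h and mitochondrially encoded transcripts are spread widely at 96 h.

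In the lists of cytosolic ribosomal proteins, glycolysis and nuclear-encoded respiratory genes most members were not called, and most of the calls made were of lower genes, with counts that changed with single libraries. Of 75 genes of cytosolic ribosomal proteins, 23 were lower and 0 higher, 73 lay below 0 and the median was -0.20. RPS18, of the small subunit, was at 1010 and 990 CPM (12 h), 791 and 824 (24 h), 811 and 764 (48 h), and 601 and 611 (96 h). Its levels were lower at 24 h than at 12 h and at 96 h than at 48 h, the second step passing the test (adjusted p = 0.0284), and 24 h and 48 h lay close together. The late minus early log2 fold change was -0.38 ± 0.09 (SE, adjusted p = 0.0118), a call lost without either 12 h library or 96 h replicate 1. RPS18 was also not called by DESeq2 (adjusted p = 0.0987). The list medians had the same course, at -0.17 between 24 h and 12 h, -0.02 between 48 h and 24 h and -0.20 between 96 h and 48 h. The count was 0 without 12 h replicate 1 or 96 h replicate 1, 2 without 12 h replicate 2 and 36 without 48 h replicate 1. It was 1 with 48 h alone as the late side and 52 with 96 h alone. It was 13 without 24 h replicate 2, without both libraries that stood apart, or with upper-quartile scaling, and 46 in a fit with 1 mean per time. Pseudogene copies of these genes can share reads with them.

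Of 30 genes of hypoxia and glycolysis, 9 were lower and 1 higher, with a median of -0.17. HK2, the hexokinase gene, was at 47.8 and 54.7 CPM with DMSO, 32.1, 44.8, 37.9 and 36.5 early and 26.2, 30.7, 22.9 and 24.9 late. The late libraries lay below every early library and all treated libraries below DMSO, with a late minus early log2 fold change of -0.53 ± 0.10 (SE, adjusted p = 0.00152). SLC2A1, the glucose transporter gene, fell by 0.41, ENO1 by 0.39, LDHA by 0.32 and PGK1 by 0.30, all of glycolysis. In all 9 the DMSO mean was at or above the early mean. VEGFA, the angiogenic factor gene of this list, rose by 0.27. SLC2A1 lost its call without any 1 of 6 libraries and VEGFA without any 1 of 4. The count of lower genes was 5 without 12 h replicate 1, 12 h replicate 2 or 96 h replicate 1, and 6 with upper-quartile scaling.

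Of 42 nuclear-encoded genes of the respiratory chain, 7 were lower and 0 higher, with a median of -0.16. ATP5F1B, the beta subunit of ATP synthase, went from 551 ± 41.9 to 441 ± 34.8 CPM (SD, n = 4 each, log2 -0.32, adjusted p = 0.00465). The count was 1 without 12 h replicate 1 or 96 h replicate 1, 2 without 12 h replicate 2, 3 without 24 h replicate 2 and 4 without 48 h replicate 1 or both libraries that stood apart. It was 4 with 48 h alone as the late side and 15 with 96 h alone. Of 20 chaperone genes, 4 were lower, with a range of 1 to 6 when 1 library was left out and 8 by DESeq2, limma-voom, 1 mean per time or the GC offset. They were HSP90AA1 (-0.27) and the chaperonin subunit genes CCT3, CCT4 and CCT7 (-0.21, -0.23 and -0.24), each of which lost its call without any 1 of 4 or 6 libraries. Of 24 translation factors EIF5A and EEF1B2 were lower, and of 36 genes of ribosome biogenesis FBL was lower. Each fell by less than 0.3 on the log2 scale. Of all genes tested 3.19% were called lower, and the count for ribosome biogenesis is near that share. FBL lost its call without any 1 of 7 libraries and EEF1B2 without any 1 of 3.

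Other large falls were in genes of no shared list. ISL2, a LIM homeobox factor of motor neurons, lies on chromosome 15 (76336724 to 76342476). It was at 12.5 and 15.2 CPM with DMSO, 10.3, 11.5, 9.75 and 9.37 early and 7.80, 6.59, 4.72 and 4.39 late. Its order ran from DMSO down to 96 h without overlap between the sides, and the log2 fold change was -0.80 ± 0.16 (SE, adjusted p = 0.0032), the largest fall taken by the rule. HDAC5, a histone deacetylase of class IIa, was at 80.1 and 84.6 CPM at 12 h, 59.6 and 61.7 at 24 h and 42.4 to 50.3 late, against 52.0 and 61.0 with DMSO. It was thus above DMSO at 12 h and below it late, and its log2 fold change was -0.65 ± 0.09 (SE, adjusted p = 0.000137). REXO5, an RNA exonuclease gene, fell by 0.71. TMEM160 fell by 0.63, and its call was lost without 12 h replicate 1 or 96 h replicate 1. COL6A6, a chain of collagen VI, fell by 0.69, and this call was lost without 12 h replicate 2, 48 h replicate 1 or 96 h replicate 1.

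The 5 genes that were lower by at least 2-fold carried little weight, and were named after their values were seen. TPI1P1, RPL29P19 and HNRNPA1P7 are pseudogenes, and the calls of TPI1P1 and RPL29P19 were lost without any 1 of 6 and 3 libraries. GAL, the galanin gene, had an early mean of 1.49 CPM and lost its call without any 1 of 5 libraries. RN7SL3, a copy of the signal recognition particle RNA, was at 1103 CPM in 12 h replicate 1 and 154 to 224 CPM in the other 7 libraries. Its log2 fold change was -1.29 with all libraries and -0.20, no longer called, without that one.

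BRD9, against which WA-68 is directed, and the genes of its complex showed no called change with the times pooled. Of 6 tested ncBAF and fusion partner genes 0 were called in either direction. With 96 h alone as the late side 1 of the 6 was higher, and with 48 h alone 0 were called. BRD9 itself was at 101 and 109 CPM with DMSO, 96.4, 93.6, 97.1 and 94.4 early and 92.5, 94.9, 88.9 and 90.0 late (log2 -0.06 ± 0.06 SE, adjusted p = 0.623). SS18 stood at 0.04 ± 0.06, SSX1 at 0.09 ± 0.08, BICRA at 0.13 ± 0.10 and BICRAL at 0.01 ± 0.06 (log2 late minus early with SE). Reads of the SS18-SSX fusion are not told apart from those of its parent genes in these counts. Of 21 other BAF subunits 1 was higher, SMARCD3 (0.22), and of 31 Polycomb subunits 1 was higher, RYBP (0.20), and 3 lower, EED (-0.35), PHF19 (-0.35) and RBBP7 (-0.21). Of all genes tested 3.2% were higher and 3.19% lower, and the counts of 1 are near that share. SMARCD3 and RBBP7 lost their calls without any 1 of 7 libraries, RYBP of 6, EED of 5 and PHF19 of 4. With 1 library left out, 0 to 4 Polycomb genes were higher and 0 to 2 lower. With 48 h alone as the late side 0 Polycomb genes were higher and 3 lower. With 96 h alone 6 were higher and 0 lower. EED and RBBP7 are subunits of the repressive complex PRC2, PHF19 an accessory factor of it, and RYBP part of PRC1.

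Among 15 genes tied to synovial sarcoma, TLE2, a Groucho-family corepressor, rose by 0.35 and SIM2 fell by 0.51. They were the members called, beside 3.2% of all genes tested called higher and 3.19% called lower. SIM2, a PAS-domain factor, was at 64.1 and 72.2 CPM with DMSO, 45.4, 40.1, 43.2 and 38.5 early, 37.9 and 33.7 at 48 h, and 24.6 and 20.9 at 96 h. The sides met closely between 24 h and 48 h, and the fall from 48 h to 96 h passed the test (log2 -0.64, adjusted p = 0.028). Its late against early call was lost without 12 h replicate 1 or 96 h replicate 1, and by DESeq2 with all 8 libraries (adjusted p = 0.108).

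For some genes the pooled late mean joins unlike times. SCD, the stearoyl-CoA desaturase gene, was at 1424 and 1139 CPM (12 h), 1674 and 1681 (24 h), 2239 and 1937 (48 h), and 1254 and 1174 (96 h). The late times lay on opposite sides of the 24 h level, with a log2 step from 48 h to 96 h of -0.78 (adjusted p = 7.11e-05). Late against early it was 0.16 (adjusted p = 0.598). The nuclear noncoding RNAs NEAT1 and MALAT1 were also lower at 96 h than at 48 h, by log2 -0.70 and -0.42, and were not called late against early. Upward 48 h to 96 h steps were called in CYFIP2 (1.37), CDH23, MYH11 (0.61), RELN (0.56), AMOTL2 (0.54), USF1 (0.51) and CXCL12 (0.41). CXCL12, a chemokine gene, was at 177 to 197 CPM early, 245 and 224 at 48 h and 312 and 313 at 96 h. RELN, the gene of the matrix protein reelin, was at 36.9 to 41.9 CPM early, 43.8 and 49.0 at 48 h and 62.7 and 74.6 at 96 h. Both rose late against early as well, by 0.54 and 0.52, and their groups did not overlap.

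Other lists are given by their counts, to be read against the 6.39% of all genes called in either direction. Of 35 lysosome and autophagy genes 0 were called. Of 34 genes of cholesterol and fatty acid synthesis TM7SF2 (0.54) and DHCR7 (0.27) were higher and PMVK (-0.34) lower. Of 23 BMP and TGF-beta genes, the ligand gene BMP5 (0.62), the BMP antagonist gene GREM1 (0.31) and TGFB1 (0.29) were higher. Of 19 genes of the unfolded protein response, the chaperone gene HSPA5 (0.28) and the factor gene XBP1 (0.25) were higher. Of 22 immediate early genes KLF10 was higher (0.28) and NR4A1 lower (-0.72), the latter with overlap between the sides. Calls were lost without any 1 of 6 libraries for XBP1, 5 for TGFB1 and NR4A1, 4 for DHCR7 and 2 for PMVK.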

How the data were processed

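Poly(A) RNA of HS-SY-II cells was sequenced as stranded, paired-end libraries of 150 bp reads, per the labels' protocols. The authors deposited raw counts per gene for 63140 identifiers. The submitters' processing notes name bcl2fastq, FastQC, Trim Galore, cutadapt, STAR, featureCounts and GRCh38. The sources used here do not give versions, the annotation release, the strand setting or whether reads with several matches were counted. Symbols came from a gene name table (42291 identifiers), positions from GENCODE v29 and promoters from RefSeq.

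Of 31769 genes with a count in the 8 WA-68 libraries, filterByExpr in edgeR 4.0.16 (R 4.3.3) kept 16187. Counts were scaled by TMM and fitted with 1 mean per side (glmQLFit, glmQLFTest, 6 residual degrees of freedom, Benjamini-Hochberg adjusted p under 0.05). A fit with 1 mean per time gave the steps between times. An SE is the log2 fold change over the square root of F. GC content was known for 95.8% of tested genes and 98.1% of called ones. The p-values of late against early measure the spread between libraries within a side, which holds the differences between its times. Those of the steps between times measure the spread between labelled biological replicates. All libraries are of 1 line.

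The comparison, the 44 gene lists and the genes named were chosen with earlier results of these data known. Named genes were the 14 largest rises and falls with a mean of at least 5 CPM and no overlap between sides, 5 ncBAF and fusion genes, and up to 4 members per list by adjusted p. Others named were chosen after their values were seen. Not every gene the rule takes is reported here. Replicate numbers did not pair the libraries. Lists were described by counts and medians, with no set test. Alternatives covered scaling, filters, a replicate block, DESeq2 1.42.0, limma-voom (limma 3.58.1), thresholds, single times, and libraries left out.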

Additional observations from a re-analysis of the deposited data

Results flagged for a closer look

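Each side of 4 libraries was searched, for the 28 leading genes and for library measures, for a library far from the other 3, which gave 64 groups. Of these 2 stood out by Dixon's test, and chance gives about 1 in 20. H2AC13 was at 110.1 CPM in 48 h replicate 1, while the other late libraries lay between 98.6 and 99.8 CPM. H3C7 was at 103.6 CPM in 96 h replicate 2, while the other late libraries lay between 90.2 and 92.0 CPM. Both values are still below every early library of the gene.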

How the results depend on the processing

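Of the 518 higher and 517 lower genes, 225 and 193 were called in each of the 8 fits that left out 1 library, which gave 293 to 692 higher and 242 to 605 lower genes. An adjusted p under 0.01 left 244 and 204, a log2 fold change of at least 1 left 41 and 5, and glmTreat against 1.5-fold left 1 and 0. With 96 h alone as the late side 798 were higher. With 24 h alone as the early side the counts were 103 and 122, with 12 h alone 261 and 213, and with replicates summed 251 were lower; these fits use fewer samples. Other scalings, filters, DESeq2, limma-voom, 1 mean per time and the GC offset stayed within 1.5 times. Upper-quartile scaling gave 602 and 417, and no filter 625 and 603. Between 24 h and 12 h the 1 gene became 17 without the filter, 3 with the GC offset, and 0 with the stricter filter, all 10 libraries, DESeq2 or an adjusted p under 0.01, and 0 to 24 with 1 library left out. Between 96 h and 48 h the 15 genes became 195 without the filter, 9 with the stricter one, 6 with all 10 libraries, 68 by DESeq2, 32 by limma-voom, 4 at 0.01, 74 with the GC offset, and 1 to 1103 with 1 library left out. The cause of these moves was not tested.

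Same-numbered replicates were not paired, since their deviations correlated at -0.073 to 0.042. A replicate block gave 450 higher and 423 lower genes, 0 between 24 h and 12 h and 7 between 96 h and 48 h. It left 13 of the 75 ribosomal protein genes lower, 1 of the 25 ion channel genes higher, and 0 of the 21 other BAF and 31 Polycomb subunits higher.

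Of 172 named genes called, 100 kept their call with each library left out and 72 lost it at least once. None of these 172 changed direction under the alternatives run. A change of 50 signs in 15 named genes concerned genes not called either way.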

Other observations

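Of the genes called higher, 42 had a GENCODE type other than protein coding and 29 had no symbol, against 19 and 1 of those called lower. These types take in pseudogenes as well as noncoding RNAs. The shares of such genes among all genes tested were not counted. The median level over the 8 libraries was 37.4 CPM for genes called higher, 69.5 CPM for genes called lower and 23.0 CPM for all genes tested.

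Of the genes called higher, several lie on the same stretch of chromosome 11 (GRCh38, GENCODE v29). MUC6 is at 1012821 to 1036706, MUC2 at 1074875 to 1110511, MUC5B at 1223066 to 1262172, ASCL2 at 2268495 to 2270952 and TRPM5 at 2404515 to 2423045. They were noticed after their values were seen, and neighbouring genes were not tested as a group. MUC5B lost its call without any 1 of 6 libraries, and the mucin gene MUC5AC was not called. The genes tested and called in this stretch were not counted.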
